A study of Mus musculus with 2 samples.

Results

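Immediate early genes are genes whose transcripts appear shortly after a neuron fires or a cell is stimulated, without the need for newly made protein. 10 of them were followed here across the cell classes of the aged mouse hippocampus: Fos, Fosb, Junb, Egr1, Egr2, Arc, Npas4, Nr4a1, Bdnf and Ier2. They were listed by name, with earlier results of these data known, and each of the 10 had 1 row among the 19059 genes in the files. The control library pooled the hippocampi of 4 aged C57BL/6 mice on standard chow, and the tomatidine library those of 4 C57BL/6 mice given chow with 0.05% tomatidine, a steroidal alkaloid found in tomatoes, for 3 months. Treatment began at 21 months of age, and the study used both sexes; the sexes within each pool were not known here. Flash frozen tissue was fixed and dissociated, and probes bound to each transcript were counted by their UMIs (unique molecular identifiers), barcodes that mark each captured molecule. With 1 pooled library a group, no difference between the groups has a replicate check, mice within a pool cannot be told apart, and no test was possible. All intervals are exact 95% intervals for counting error only.

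Of 31097 deposited cells, 29617 were clustered, 15115 of the control library (median 7077 UMIs) and 14502 of the tomatidine library (median 7408 UMIs). Of these, the 17.3% in unnamed clusters joined no class. Clusters were named from marker genes, with the 10 genes themselves left out of the clustering along with other activity genes, 95 in all. The neurons were granule-like cells of the dentate gyrus (2731 control and 2113 tomatidine cells), CA1-like pyramidal cells (632 and 560), CA3-like pyramidal cells (357 and 299) and interneuron-like cells (557 and 514). Glia and vessel cells were astrocyte-like (1843 and 2132), oligodendrocyte-like (3012 and 2328), oligodendrocyte precursor-like (379 and 350), microglia-like (912 and 808) and vessel-like cells (338 and 456). Nearly every marker was raised in its class: 9 of 9 in granule-like, 8 of 8 in CA1-like, 9 of 10 in CA3-like (not Trhr), 12 of 12 in interneuron-like and 23 of 24 in vessel-like cells (not Acta2), and all of those of the other glia. 6 of 11 astrocyte markers were also raised in vessel-like cells, and 4 of 5 markers of committed oligodendrocyte precursors in precursor-like cells. The libraries also held unequal numbers of cells of other kinds, with 343 choroid plexus-like cells in the control library against 32 in the tomatidine library, 82 against 2 striatal-like neurons, and 180 against 667 neurons of another subcortical type. 292 cell barcodes occurred in both libraries. Leaving out their 584 cells moved no summed log2 difference reported below past its counting interval.

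Most of the 10 genes encode transcription factors. Fos, FosB and JunB are subunits of AP-1, Egr1 and Egr2 are zinc finger factors, Nr4a1 is an orphan nuclear receptor, and Npas4 is a basic helix-loop-helix factor known to respond to calcium entry in neurons. Arc and Bdnf act outside transcription: Arc is carried to dendrites and acts in the removal of AMPA receptors from synapses, and Bdnf is a secreted ligand of the receptor TrkB. Ier2 is a nuclear protein induced by growth factors and stress. On mm10, Fos lies on chromosome 12 (85473890 to 85477273, plus strand), Fosb on chromosome 7 (19302696 to 19310051, minus strand) and Junb and Ier2 on chromosome 8 (84974484 to 84978718 and 84661331 to 84662852, minus strand). Egr2 lies on chromosome 10 (67535475 to 67542188, plus strand), Npas4 on chromosome 19 (4984355 to 4990316, minus strand), and Bdnf on chromosome 2 (109674700 to 109727007, plus strand). Arc (74669083 to 74672570, minus strand) and Nr4a1 (101254269 to 101274795, plus strand) are both on chromosome 15. Calcium entry through NMDA receptors and voltage-gated channels reaches such genes through CREB at cyclic AMP response elements, whose core is TGACGTCA or its shorter form TGACG, and through SRF at the CArG box, CC followed by 6 A or T and GG.

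Promoter windows of 250 bases before the start of a transcript were taken from RefSeq on GRCm38.p6, the build that mm10 names. They are shown for 4 members, to show the motifs named above in place. Each window shown was chosen as one that lies outside annotated exons and holds TGACG, so its presence there is no result. Each is written 5′ to 3′ on the strand of the gene, in lower case, with capitals for TGACG, or CGTCA where it reads on the other strand, and for a CArG box. The Fos window lay at chr12:85473640-85473889 (plus strand), that of Junb at chr8:84978749-84978998 (minus strand), that of Nr4a1 at chr15:101266596-101266845 (plus strand), and that of Egr2 at chr10:67537619-67537868 (plus strand).
Fos: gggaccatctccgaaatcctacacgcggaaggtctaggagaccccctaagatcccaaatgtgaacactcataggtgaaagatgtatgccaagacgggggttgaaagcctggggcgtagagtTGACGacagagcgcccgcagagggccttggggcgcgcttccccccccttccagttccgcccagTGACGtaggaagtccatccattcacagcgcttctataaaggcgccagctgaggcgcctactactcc
Junb: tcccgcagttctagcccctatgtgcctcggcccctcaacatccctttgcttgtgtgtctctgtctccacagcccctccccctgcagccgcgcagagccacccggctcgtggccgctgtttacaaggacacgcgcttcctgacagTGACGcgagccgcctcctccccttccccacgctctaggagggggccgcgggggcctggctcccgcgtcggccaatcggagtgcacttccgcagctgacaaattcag
Nr4a1: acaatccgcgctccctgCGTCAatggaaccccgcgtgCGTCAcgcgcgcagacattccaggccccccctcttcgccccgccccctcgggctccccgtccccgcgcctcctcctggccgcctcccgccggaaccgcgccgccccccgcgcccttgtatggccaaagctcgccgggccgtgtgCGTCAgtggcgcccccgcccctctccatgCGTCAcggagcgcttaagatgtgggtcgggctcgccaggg
Egr2: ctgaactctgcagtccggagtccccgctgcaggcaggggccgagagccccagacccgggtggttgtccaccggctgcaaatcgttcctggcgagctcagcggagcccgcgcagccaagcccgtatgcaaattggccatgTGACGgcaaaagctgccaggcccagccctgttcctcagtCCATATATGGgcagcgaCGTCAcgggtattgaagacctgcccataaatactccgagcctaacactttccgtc

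Nr4a1 carried the TGACG letters 4 times, Fos and Egr2 2 times each and Junb 1 time, counted on both strands. The Fos window also held TATAAA, and the Egr2 window shown held 1 CArG box. Windows were given for 7 of the 10 genes, and each of the 7 had TGACG in at least 1 window, while 19.8% of 26994 genes with a window did. For Bdnf this was 1 of its 7 windows, of which it has several because each of its first exons has its own start. Egr2 also has several windows, not all with TGACG, and a gene with more windows has more places for a match. The Npas4 window has 0 bases outside annotated exons. The full TGACGTCA was found in 0 of the 7 genes and in 1.77% of all genes with a window. A CArG box was found in 1 of the 7, Egr2, and in 1.63% of all genes with a window. A match describes letters and not a bound site, and no window was given for Arc, Ier2 and Egr1.

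A level, in CPM, is the UMIs of a gene summed over the cells of a class in a library, for every 1000000 UMIs of that class and library. Probes differ between genes, so levels were compared between classes and libraries for 1 gene and not between genes. Of these 9 classes CA1-like cells stood highest: the 10 genes together came to 2040.5 CPM in control CA1-like cells (95% interval 2020.3 to 2060.8), against 877 in CA3-like, 430 in granule-like and 397 in interneuron-like cells. In the tomatidine library the same sums were 1608 in CA1-like (1587 to 1629), 862 in CA3-like, 393 in granule-like and 375 in interneuron-like cells. Granule-like and interneuron-like cells thus lay within the range of the glia and vessel classes, which ran from 317 in oligodendrocyte-like to 589 in vessel-like control cells and from 326 to 614 in tomatidine cells.

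**Figure D1:**
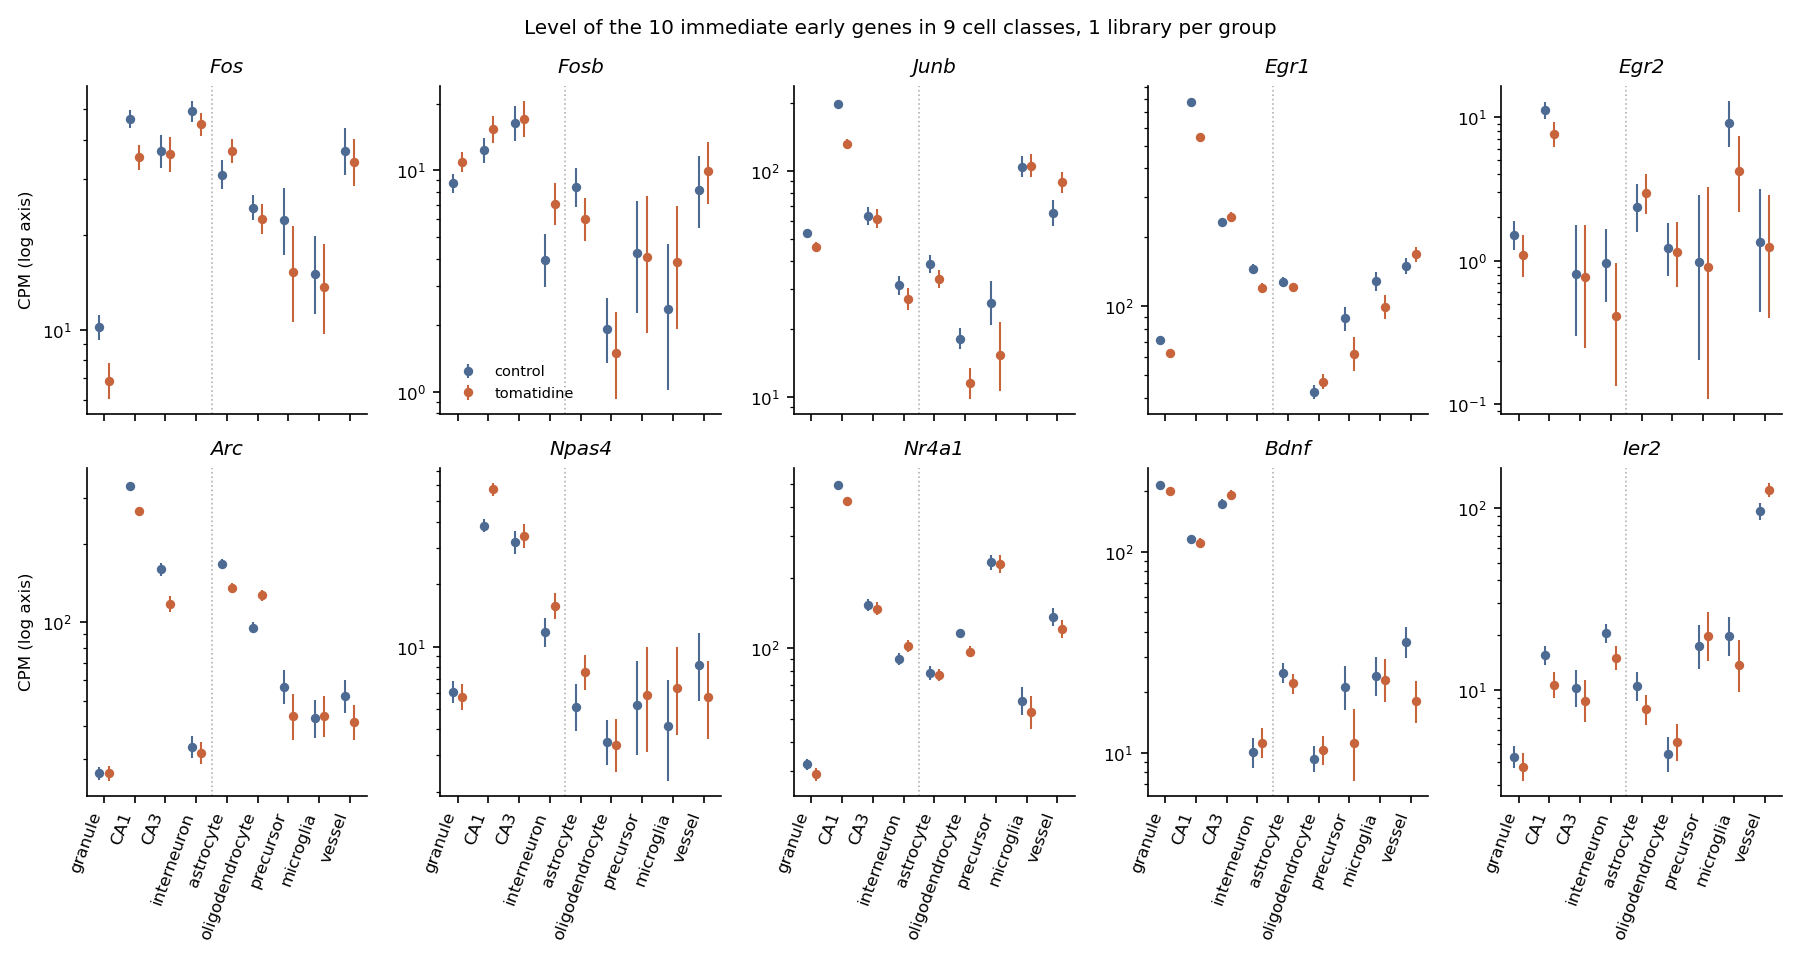
Level of each immediate early gene in 9 cell classes. Each panel is 1 gene, the y axis is the level in CPM on a log scale, points are libraries (control and tomatidine) with exact 95% Poisson intervals, and the dotted line parts neurons from glia and vessel cells. CA1-like cells are at the top for 6 of the 10 genes in both libraries, while Bdnf is highest in granule-like cells and Ier2 in vessel-like cells.

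Egr1, a factor widely used as a map of recent neuronal activity, was at 773 CPM in CA1-like control cells and 547 in tomatidine cells. It was next highest in CA3-like cells (232 control and 246 tomatidine). In granule-like cells it was at 71.4 and 62.3, below all classes but oligodendrocyte-like cells in the control library. Egr2, a low-count relative, was at 11.2 and 7.58 CPM in CA1-like cells, with an interval that overlapped that of microglia-like cells (9.14 and 4.201) in both libraries. In CA3-like cells it rested on 6 and 5 UMIs.

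The AP-1 genes did not share 1 order of classes. Junb was highest in CA1-like cells (197.0 control and 131 tomatidine CPM), and microglia-like cells came next (104 and 105). Fos was highest in interneuron-like cells, at 49.3 and 44.9, where its control interval overlapped that of CA1-like cells (46.7 control, 35.2 tomatidine), and lowest of all 9 classes in granule-like cells, at 10.2 and 6.88. Fosb, whose splice variant ΔFosB is known to build up with repeated activity, was highest in CA3-like cells (16.4 and 17.1) with intervals that overlapped those of CA1-like cells (12.3 and 15.3). Its counts do not separate the splice forms.

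Npas4 was highest in the pyramidal neurons. Its levels were 38.2 and 57.3 CPM in CA1-like cells (control and tomatidine), 31.7 and 34.2 in CA3-like and 11.7 and 15.7 in interneuron-like cells. They were 6.06 and 5.73 in granule-like cells and between 3.37 and 8.14 in the glia and vessel classes. Granule-like cells were therefore not above the glia and vessel range for this gene. Nr4a1 was highest in CA1-like cells (497 and 426) but next in oligodendrocyte precursor-like cells (233 and 229), above CA3-like cells (152 and 148) in both libraries.

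Arc was at 334 and 267 CPM in CA1-like cells. Astrocyte-like cells (168 and 136) were level with CA3-like cells (160.0 and 118) in the control library and above them in the tomatidine library. Oligodendrocyte-like cells had 95.4 and 127, above granule-like cells with 26.4 and 26.3. Bdnf had another order, highest in granule-like cells (216 and 200.3), whose mossy fibres are known to carry the protein. CA3-like cells followed (173 and 192), with an interval overlapping that of granule-like cells in the tomatidine library, then CA1-like cells (115 and 111). Interneuron-like cells had 10.1 and 11.3, below 4 of the 5 glia and vessel classes in the control library. Ier2 was highest in vessel-like cells (95.8 and 126), and no other of these 9 classes exceeded 20.4.

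The rule set the 4 neuron classes together against the 5 glia and vessel classes together. In the control library 6 of the 10 genes were at least 1.5-fold higher in neurons (26.7% of all 14662 genes compared were), and in the tomatidine library 5 of 10 (25.5% of 14608 genes). Bdnf showed the largest difference, 8.63-fold in control (158.7 against 18.4 CPM) and 8.84-fold in tomatidine cells (147 against 16.7). Npas4 followed with log2 differences of 1.83 (1.61 to 2.06) and 1.90 (1.69 to 2.12), then Egr1 with 1.52 and 1.02, Junb with 1.19 and 0.79, and Fosb with 1.04 and 1.39. Egr2 passed the fold in the control library only, at 0.66 (0.32 to 1.02) against 0.13 (−0.28 to 0.55), and Nr4a1 did not in either (0.47 and 0.48). Fos and Arc were level in the control library, at 0.00 (−0.10 to 0.11) and 0.02 (−0.03 to 0.07), and lower in neurons in the tomatidine library, at −0.33 (−0.44 to −0.21) and −0.37 (−0.42 to −0.31). Ier2 was lower in neurons in both (−0.78 and −1.45). When cells were classed one by one from their own markers in place of clusters, 1 of the 10 genes in each library was at least 1.5-fold higher in neurons, Nr4a1 turned to −0.19 and −0.13 and Egr1 to −0.10 in the tomatidine library.

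Granule-like cells, the most numerous neurons, weigh on these sums. Without them the log2 difference of neurons over glia and vessel cells was 0.79 and 0.47 for Fos, 0.94 and 0.44 for Arc and 1.42 and 1.36 for Nr4a1 (control and tomatidine), and 2.40 and 1.80 for Egr1. That of Bdnf was smaller, at 2.30 and 2.44. Ier2 was at −0.05 in the control and −0.82 in the tomatidine library.

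**Figure D2:**
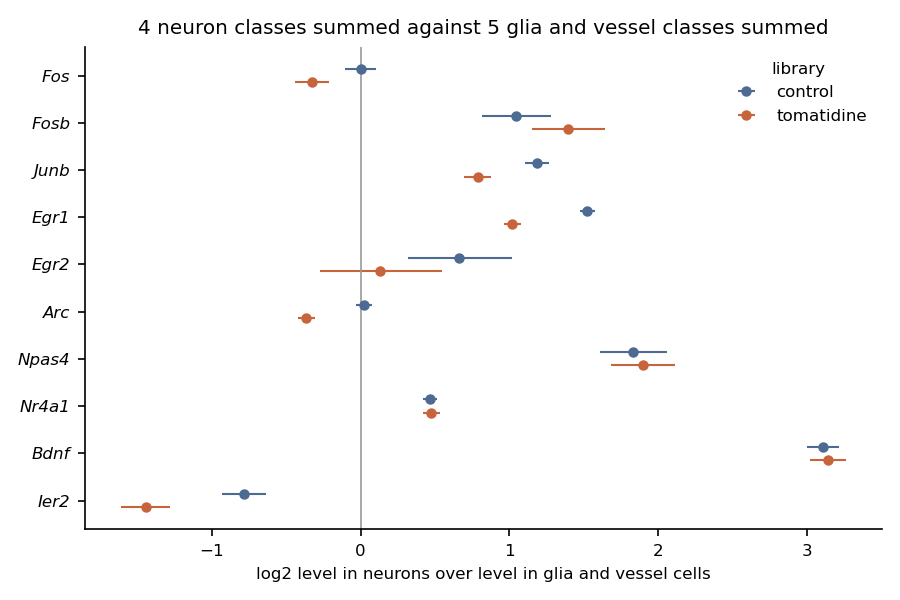
Log2 level in the 4 neuron classes over the level in the 5 glia and vessel classes, for each of the 10 genes, in the control and tomatidine libraries, with exact 95% intervals. Bdnf lies farthest to the right in both libraries, Ier2 lies left of 0 in both, and Fos and Arc lie at 0 in the control library and left of it in the tomatidine library.

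Free RNA from broken cells can put neuronal UMIs into glia. To gauge it, 39 neuron markers were summed in each glia and vessel class: they came to between 24.7 and 34.3% of their level in neurons in the control library and between 26.3 and 33.7% in the tomatidine library, and 0 of the 39 were at 0. Bdnf in these classes lay between 5.89 and 22.4% of its neuron level, below the share of the markers. Arc lay above the summed share of these markers. It was at 157% of the neuron level in astrocyte-like control cells and 160% in tomatidine cells, and at 89 and 149% in oligodendrocyte-like cells. Nr4a1 in precursor-like cells was likewise above its neuron level (151 and 171%). So were Junb in microglia-like cells (127 and 171%) and Ier2 in vessel-like cells (986 and 1641%). The neuron level pools all neuron classes, and granule-like cells are the most numerous of them. Arc was at 26.4 CPM in granule-like and 334 in CA1-like control cells. Shares of single markers also varied, with an upper quartile of 57.9% in astrocyte-like control cells and 55.0% in tomatidine cells. Signalling genes outside the markers varied too. In the control library Camk2a was at 1022 CPM in glia and vessel cells against 1327 in neurons, and Grin1 at 158 against 834. In the tomatidine library Camk2a was at 1248 against 1351 and Grin1 at 186 against 874. Whether RNA freed from CA1-like cells could give these Arc levels was not tested.

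The proportion of the genes to each other also differed between classes. There were 0.43 Arc UMIs for each Egr1 UMI in CA1-like control cells and 0.49 in tomatidine cells, 0.37 and 0.42 in granule-like, 0.69 and 0.48 in CA3-like and 0.23 and 0.26 in interneuron-like cells, beside 1.32 and 1.12 in astrocyte-like and 2.25 and 2.70 in oligodendrocyte-like cells. For Nr4a1 the same ratio was 0.64 and 0.78 in CA1-like cells and 2.63 and 3.70 in precursor-like cells. The share that free RNA has in each value was not tested.

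The second question was whether the genes differed with tomatidine. Over all cells of the 4 neuron classes together, most of them were lower in the tomatidine library, by a small amount, while Fosb and Npas4 were higher. Over the 4 neuron classes, 38 of 40 values had at least 20 UMIs: 27 were lower and 11 higher in the tomatidine library, with 15 counting intervals below 0 and 7 above. Over the 5 glia and vessel classes, 31 of 47 values were lower and 16 higher, with 14 and 6 intervals off 0. Of all genes with at least 20 UMIs, between 36.9 and 41.1% were lower in the neuron classes. In the glia and vessel classes between 39.0 and 48.9% were. The share of all genes with an interval off 0 was not counted. The 10 genes summed differed by −0.26 on the log2 scale in all 4 neuron classes together (−0.28 to −0.25), from 818 to 682 CPM, and by −0.00 in glia and vessel cells together (−0.03 to 0.03), from 413 to 412. Within the latter, the sum differed by −0.14 (−0.19 to −0.08) in astrocyte-like, −0.22 (−0.34 to −0.10) in precursor-like and −0.16 (−0.28 to −0.04) in microglia-like cells, and by 0.04 (−0.02 to 0.10) in oligodendrocyte-like and 0.06 (−0.02 to 0.14) in vessel-like cells, and the classes made up unequal shares of the libraries. These intervals leave out the spread between mice, which was not measured. CA1-like cells gave 39200 of the 71272 control UMIs in the neuron sum. With the study's further thresholds, given below, the summed difference was 0.036 in CA1-like, 0.054 in granule-like and 0.30 in interneuron-like cells. It was −1.58 in the few cells then named CA3-like. The difference also changed between shallower and deeper cells, as given below.

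The summed difference was widest in CA1-like cells among the 4 neuron classes. Their sum went from 2040.5 to 1608 CPM, a log2 difference of −0.34 (−0.37 to −0.32), where the median over all 12592 genes tested in the class was 0.08 and 36.9% were below 0. Junb was lower by a log2 difference of −0.58 (−0.67 to −0.50), Egr2 by −0.56 (−0.92 to −0.22), Ier2 by −0.54 (−0.84 to −0.25), Egr1 by −0.50 (−0.54 to −0.46), Fos by −0.41 (−0.57 to −0.24), Arc by −0.33 (−0.39 to −0.27) and Nr4a1 by −0.22 (−0.27 to −0.18). Npas4 was higher, at 57.3 against 38.2 CPM (0.59, 0.44 to 0.73), and so was Fosb, at 15.3 against 12.3 (0.31, 0.03 to 0.59). Bdnf was level (−0.05, −0.15 to 0.04). At least 1.5-fold, 0 of the 10 were lower and 1 higher, Npas4, with Junb just short of that fold; of all genes tested in this class 1.03% were lower and 8.31% higher by that fold.

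In granule-like cells Fos was lower by a log2 difference of −0.57 (−0.80 to −0.34), at 6.88 against 10.2 CPM, and Egr1 and Junb each by −0.20. Bdnf, the most counted of the 10 here with 10185 and 6959 UMIs, differed by −0.11 (−0.16 to −0.07). Fosb was higher, at 10.9 against 8.73 (0.32, 0.12 to 0.53), and Arc and Npas4 were level (−0.00 and −0.08). The sum differed by −0.13 (−0.16 to −0.10), beside a median of 0.03 over all genes. 0 of the 10 passed 1.5-fold in either direction, and of all genes tested 1.52% were lower and 2.97% higher by it.

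In CA3-like cells 9 genes had enough UMIs, and Arc alone had an interval below 0, at 118 against 160.0 CPM (−0.44, −0.57 to −0.31). Bdnf was higher (0.15, 0.04 to 0.26), and the sum differed by −0.03 (−0.08 to 0.03). With the study's further thresholds (200 to 6000 genes and under 10% mitochondrial UMIs) the sum was at −1.58 (−1.89 to −1.28), from 11 control and 13 tomatidine cells, because the cluster with 227 and 163 cells in which 9 CA3 markers were raised stayed unnamed there. 0 of the 9 passed 1.5-fold (1.93% of all genes lower, 5.22% higher). In interneuron-like cells Fosb was 1.79-fold higher, with 53 and 86 UMIs and 3.95 and 7.07 CPM (0.84, 0.33 to 1.36; −0.10 with cells classed one by one), and was the 1 of 9 genes past 1.5-fold (4.58% of all genes higher, 1.67% lower). Npas4 (0.42, 0.11 to 0.74) and Nr4a1 (0.18, 0.07 to 0.30) were also higher there, and Ier2 (−0.44, −0.72 to −0.17) and Egr1 (−0.28, −0.38 to −0.18) lower.

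**Figure D3:**
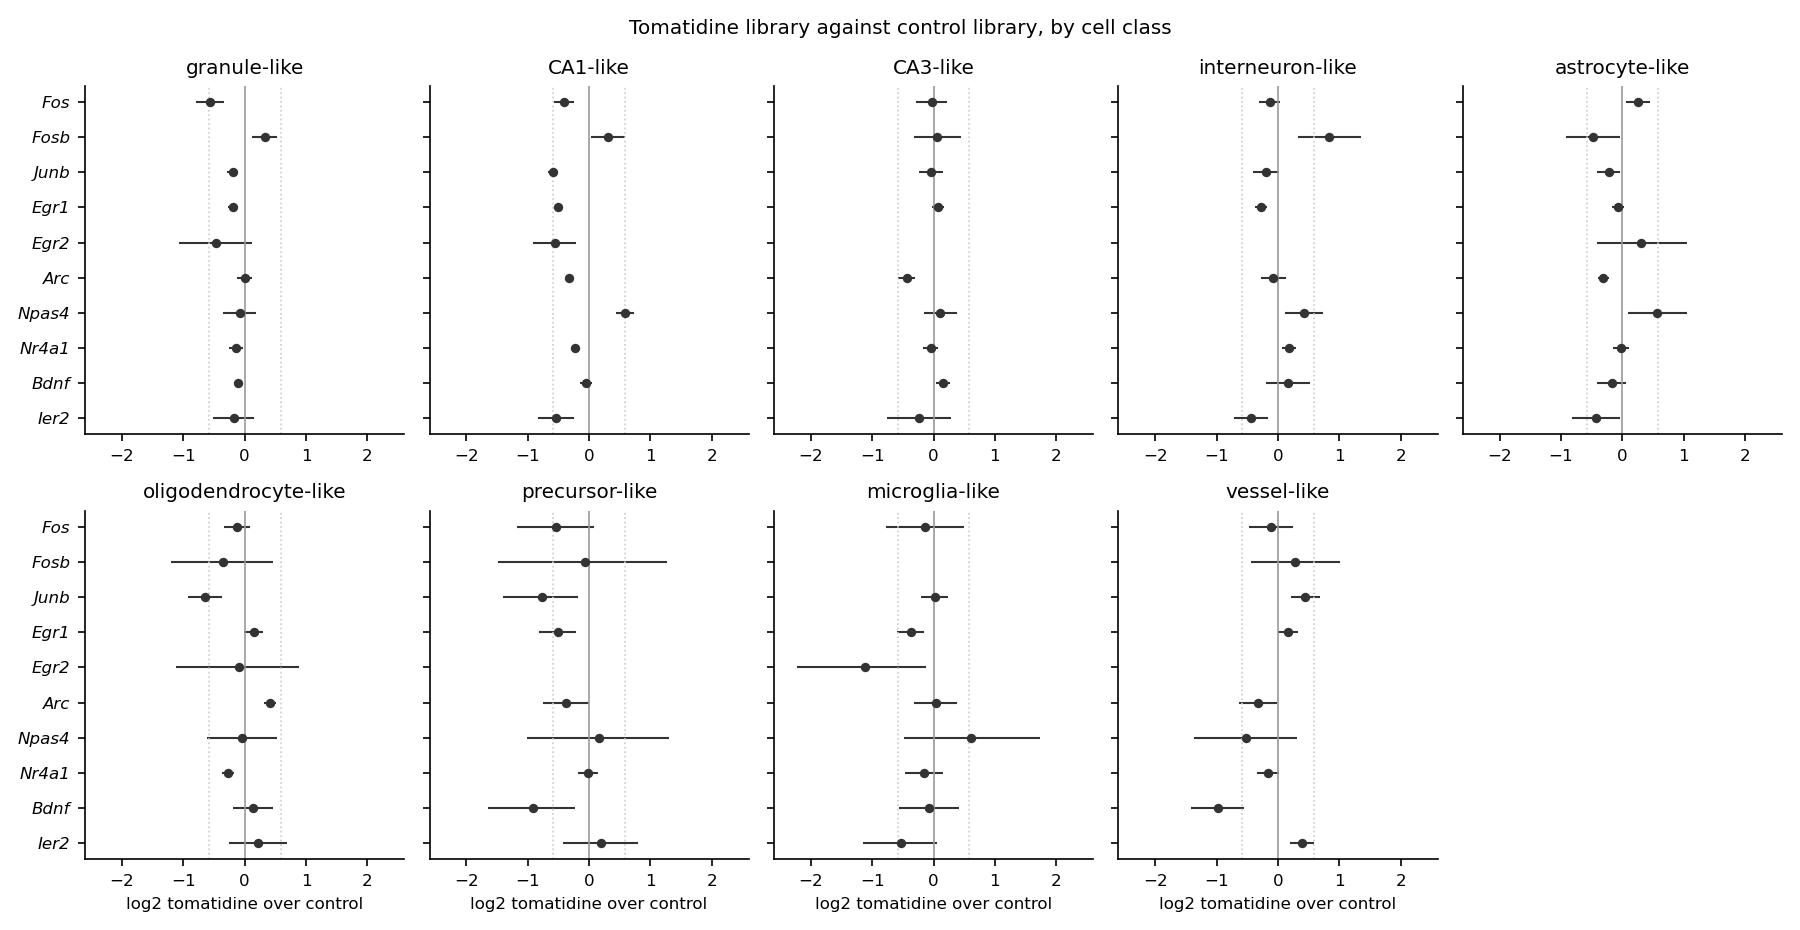
Log2 difference of each gene, tomatidine over control library, in the 9 cell classes. Points are single genes with exact 95% counting intervals, and the vertical line is no difference. In CA1-like cells 8 genes lie left of the line while Npas4 and Fosb lie right of it, and the sparse counts of microglia-like and precursor-like cells give wide intervals.

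In the glia and vessel classes most values were lower in the tomatidine library, as counted above, with exceptions in each class. In vessel-like cells Junb (0.45, 0.21 to 0.69) and Ier2 (0.39, 0.19 to 0.59) were higher in the tomatidine library and Bdnf was lower (−0.98, −1.41 to −0.55, from 131 and 73 UMIs). In oligodendrocyte-like cells Arc was higher (0.41, 0.32 to 0.51) and Junb lower (−0.65, −0.93 to −0.38), and in astrocyte-like cells Fos (0.25, 0.06 to 0.45) and Npas4 (0.57, 0.09 to 1.05) were higher, and Arc (−0.31, −0.40 to −0.22), Fosb (−0.48, −0.92 to −0.04), Junb (−0.22, −0.41 to −0.03) and Ier2 (−0.43, −0.82 to −0.05) lower. Precursor-like cells had lower Junb (−0.77, −1.40 to −0.18), Egr1 (−0.51, −0.82 to −0.21) and Bdnf (−0.92, −1.65 to −0.23), of which Junb and Bdnf turned to 1.497 and 0.12 with cells classed one by one. In microglia-like cells Egr2 was lower, on 31 and 12 UMIs (−1.12, −2.22 to −0.12), and Egr1 too (−0.37, −0.59 to −0.15). 5 of the 47 values were at least 1.5-fold lower and 1 higher. In astrocyte-like cells 0 of the 10 passed the fold, where 2.96% of all genes were that far lower and 2.55% higher. By class, the share of all genes that far lower was 1.93% in oligodendrocyte-like, 4.02% in precursor-like, 2.95% in microglia-like and 3.64% in vessel-like cells, and the share that far higher was 3.74, 4.58, 5.68 and 4.44% in the same order. The 1 higher value was Npas4 in microglia-like cells (0.61, −0.48 to 1.73).

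Depth moved with these results. Of the CA1-like cells, 56.2% of the control library and 43.0% of the tomatidine library had over 20000 UMIs, and the median was 24789.5 against 17524.5 UMIs. Split there, the sum of the 10 genes was level in cells of at most 20000 UMIs, at 1591 and 1610.2 CPM (0.02, −0.04 to 0.07, 277 and 319 cells). Finer groups of these shallower cells went both ways. The control library was higher at 5000 to 10000 UMIs (1623 against 1116 CPM) and lower at 10000 to 20000 (1568 against 1685). In the deeper cells the sum was 2119.8 against 1607 (−0.40, −0.43 to −0.37, 355 and 241 cells). Fos, Egr2 and Nr4a1 lay on opposite sides: Fos was higher in the shallower cells (0.48, 0.11 to 0.86) and lower in the deeper ones (−0.65, −0.85 to −0.46), Egr2 was at 1.005 and −1.05, and Nr4a1 at 0.22 and −0.32. Npas4 was higher in both, at 0.70 (0.42 to 0.99) and 0.38 (0.20 to 0.56), and Egr1 lower in both, at −0.15 (−0.25 to −0.04) and −0.48 (−0.52 to −0.43).

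In granule-like cells the sum was likewise level in cells of at most 20000 UMIs (0.01, −0.04 to 0.05) and lower in deeper cells (−0.25, −0.30 to −0.21). Finer groups went both ways on each side of that depth. The tomatidine library was lower at 5000 to 10000 UMIs (373 against 440 CPM) and higher at 10000 to 20000 (423 against 395). It was lower between 20000 and 50000 UMIs and higher above 50000 (388 against 322). Fos was at 10.3 against 7.20 CPM in the shallower cells (0.51, 0.19 to 0.84) but at 3.58 against 12.6 in the deeper ones (−1.81, −2.23 to −1.42) (812 and 527 cells), so the libraries differed in opposite directions in the shallower and the deeper cells. In interneuron-like cells the sums differed by 0.19 (0.06 to 0.31) and −0.17 (−0.24 to −0.11), and in CA3-like cells the order was turned, with −0.25 (−0.36 to −0.14) in the shallower and 0.04 (−0.02 to 0.10) in the deeper cells. The study's further thresholds on genes and mitochondrial UMIs, applied together, gave sums of 0.036 in CA1-like, 0.054 in granule-like and 0.30 in interneuron-like cells, and −1.58 in the 24 cells then named CA3-like. What part depth has in the differences between the libraries was not tested.

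**Figure D4:**
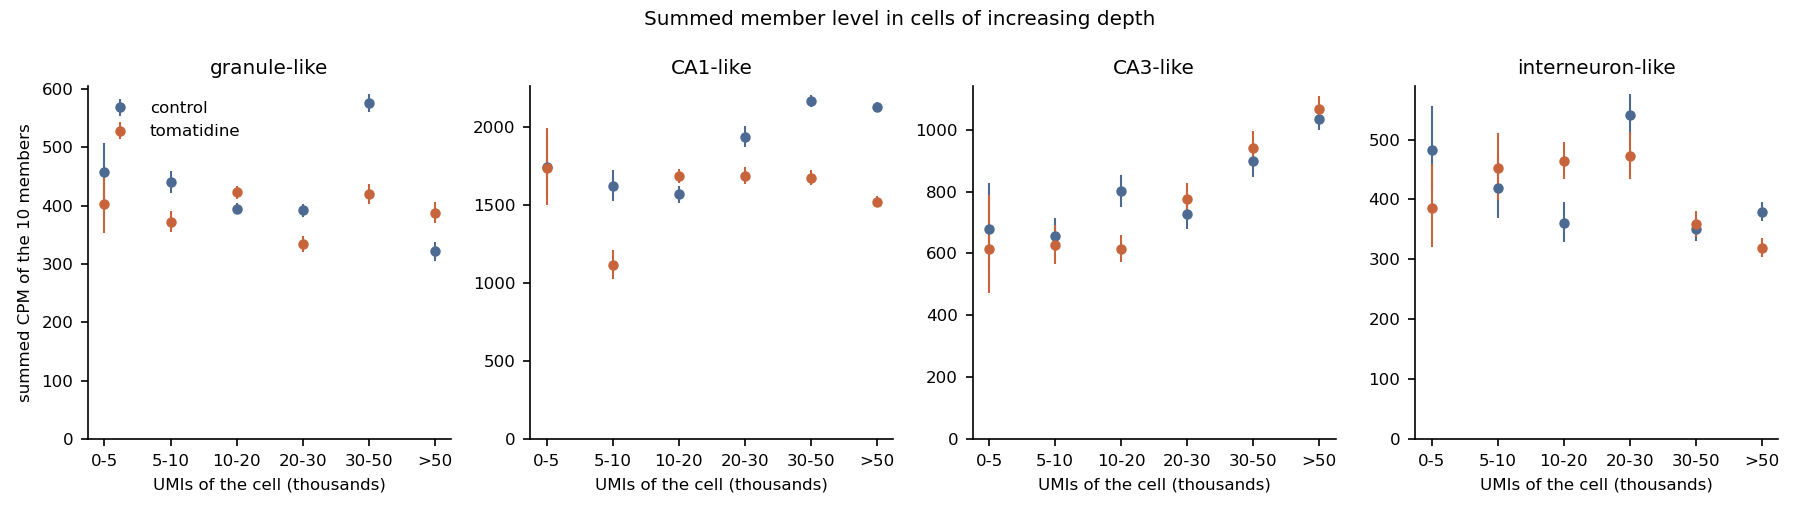
Summed level of the 10 genes in cells of increasing depth, for the 4 neuron classes. The x axis groups cells by their own UMIs in units of 1000, the y axis is their summed CPM from 0, and points are libraries with exact 95% Poisson intervals. In CA1-like cells of over 20000 UMIs the control cells lie between 1936 and 2164 and the tomatidine cells between 1519.8 and 1686. Between 5000 and 10000 UMIs the control cells are also higher, at 1623 against 1116. Between 10000 and 20000 they are lower, at 1568 against 1685.

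Outside the neuron classes summed here, deep-layer excitatory neuron-like cells (407 control and 399 tomatidine cells), led by Ccn2 and Cplx3, had the highest sum of the named classes, 2459 CPM in control and 1669 in tomatidine cells, a log2 difference of −0.56 (−0.59 to −0.53). Fos was at 140 and 70.5 (−0.99, −1.11 to −0.86), Ier2 at 48.6 and 26.0 (−0.90), Arc at 364 and 220 (−0.73), Junb at 232 and 143 (−0.69), Nr4a1 at 482 and 303 (−0.67) and Egr1 at 1099 and 811 (−0.44), while Npas4 was level at 41.0 and 41.0 (−0.00, −0.18 to 0.18) and Fosb at 22.6 and 23.8 (0.07, −0.17 to 0.31). 5 of the 10 genes were at least 1.5-fold lower, where 2.11% of all genes tested in the class were, and 0 were that far higher, where 4.5% were. Unlike in CA1-like cells the sum was lower both in cells of at most 20000 UMIs (−0.67, −0.74 to −0.60) and in deeper cells (−0.55, −0.57 to −0.52). Fos and Arc were lower in both as well, at −0.71 and −0.999 for Fos and −1.05 and −0.69 for Arc. The share of cells over 20000 UMIs was 71.0% in control and 60.9% in tomatidine cells.

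The granule-like and interneuron-like classes each held more than 1 cluster. In granule-like cells the cluster led by C1ql2 and Plk5 had 591 and 529 CPM for the 10 genes together, and that led by Dsp and Tdo2 298 and 284, so the clusters differed far more than the libraries did (−0.16 and −0.07 on the log2 scale). Nr4a1 was lower in the former (−0.36, −0.50 to −0.22) and higher in the latter (0.40, 0.19 to 0.61). The interneuron cluster led by Sst, the gene of somatostatin, had a lower sum in the tomatidine library (433 and 363, −0.26, −0.33 to −0.18), and the one led by Vip, the gene of vasoactive intestinal peptide, a higher one (335 and 392, 0.23, 0.13 to 0.32). In the Vip-led cluster Arc was at 15.4 and 27.0 (0.81, 0.40 to 1.23), Npas4 at 13.4 and 21.4 (0.67, 0.22 to 1.13) and Fosb at 2.80 and 8.10 (1.53, 0.63 to 2.52). In the Sst-led cluster Arc was at 43.8 and 34.9 (−0.33, −0.57 to −0.09) and Ier2 at 22.2 and 14.6 (−0.61, −0.97 to −0.25).

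Within a class the UMIs were spread unevenly over cells. Fos was found in 5.86% of granule-like control cells (exact interval 5.01 to 6.81) and 4.12% of tomatidine cells (3.31 to 5.05), with 8.80 and 8.20% in the shallower oligodendrocyte-like cells. In CA1-like cells it was found in 29.4% (25.9 to 33.2) and 23.6% (20.1 to 27.3). Egr1 was in 594 of 632 control and 504 of 560 tomatidine CA1-like cells, Arc in 92.1 and 85.5% and Npas4 in 42.2 and 43.8%. Thinned to 1500 UMIs a cell, the CA1 shares were 5.31 and 4.73% for Fos, 52.1 and 42.7% for Egr1, 35.2 and 29.0% for Arc and 5.19 and 7.59% for Npas4, with 2.86 and 2.81% for Fos in oligodendrocyte-like cells. Bdnf was the exception to this sparseness in granule-like cells, found in 82.9 and 79.5% of them, with a median of 172 and 155 CPM a cell.

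To count the genes per cell at 1 depth, each cell was thinned to 3000 UMIs. CA1-like control cells then held on average 2.65 of the 10 genes and tomatidine cells 2.34, CA3-like cells 1.59 and 1.497, and granule-like, interneuron-like and astrocyte-like cells between 0.825 and 1.01. At least 3 of the genes were found in 49.5% of CA1-like control cells and 40.3% of tomatidine cells, in 21.1 and 18.5% of CA3-like cells, in 8.18 and 8.21% of interneuron-like cells and in 4.32 and 3.84% of granule-like cells. Cells with none made up 7.68 and 11.96% of CA1-like cells. Vessel-like cells held 1.17 and 1.21 genes on average, and 12.01 and 14.3% of them at least 3.

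**Figure D5:**
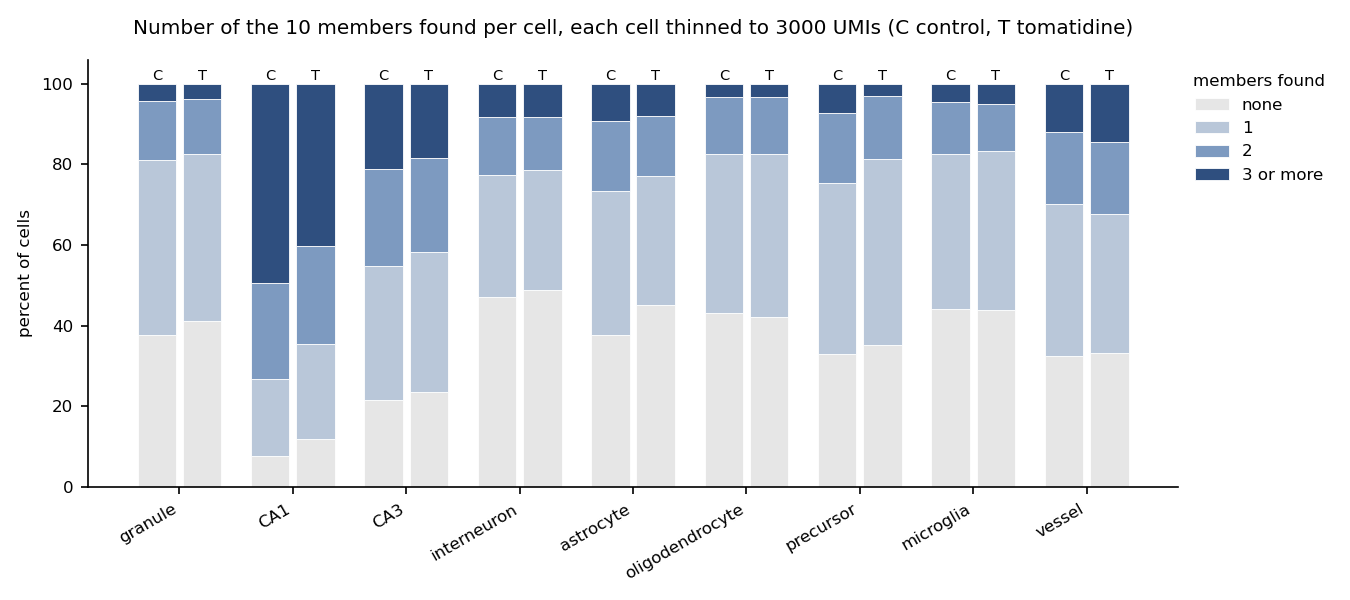
Share of cells with none, 1, 2 or at least 3 of the 10 genes, after each cell was thinned to 3000 UMIs. Each pair of bars is a cell class, with the control library (C) left and the tomatidine library (T) right. CA1-like cells have the largest share with at least 3 genes, 49.5% in control and 40.3% in tomatidine cells.

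The genes were found in the same cells. At 3000 UMIs, gene B was more often found in cells with gene A than in those without in 54 of 54 ordered pairs in granule-like control cells and 53 of 54 in tomatidine cells, in 63 of 63 and 54 of 54 pairs in CA1-like, 34 of 36 and 33 of 36 in CA3-like, and 27 of 27 and 18 of 18 in interneuron-like cells. Pairs shared genes and cells and are no replicates. The median gain was 4.11 and 3.89 percentage points in granule-like and 8.67 and 9.26 in CA1-like cells. Among CA1-like control cells with Fos, 65.1% also had Junb, against 30.2% of those without, and 80.1% had Arc, against 50.2%. In CA1-like cells with Npas4, Arc was found in 70.1% of control and 69.4% of tomatidine cells, against 51.1 and 41.3% of those without. Granule-like cells with Arc had Egr1 in 28.3 and 26.0%, against 13.4 and 12.4%. Subtypes of a class differ in these genes, as the granule clusters show, and their part in the pairs was not tested.

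The other listed genes were read in the same cells. In granule-like cells with at least 3 of the 10 genes, compared with cells with none, 48 of 59 listed genes in the control library and 43 of 51 in the tomatidine library lay above the median of all genes, which was −0.04 and −0.05 on the log2 scale, and 21 and 16 of them were at least 2-fold higher. These lists include 18 signalling genes, of which 9 and 11 lay above that median. How many of all genes were at least 2-fold higher was not counted. Clusters of a class differ in the 10 genes, and their part in these values was not tested. The counts were lower elsewhere, with 34 of 51 and 35 of 48 listed genes above the median in CA1-like cells, 22 of 31 and 20 of 32 in CA3-like cells and 29 of 42 and 28 of 39 in interneuron-like cells, where 0 of 6 and 1 of 6 heat shock genes were. Nptx2, a secreted pentraxin that gathers AMPA receptors, was higher in granule-like cells by a log2 difference of 3.90 and 4.10. Inhba, a subunit of activin, was higher in them by 3.42 and 4.96, Nr4a3 by 3.26 and 3.67, and Vgf, a neuropeptide precursor, by 3.03 and 3.32. In CA1-like cells Dusp5, a phosphatase that acts on ERK, was higher by 2.57 and 2.56, Egr4 by 2.22 and 2.502, and Nr4a2 by 1.92 and 2.497. In interneuron-like cells Nrn1, the gene of neuritin, was higher by 1.83 and 1.90, and in CA3-like cells Vgf by 1.13 and 1.204. These genes were named after their values were seen, as those with the largest differences among genes with at least 500 UMIs. Of the genes that carry the signal to the promoters, Mapk3, the gene of ERK1, was lower in CA1-like cells with at least 3 of the 10 genes (−1.30 and −0.97). The list of these signalling genes was at a median of −0.01 and −0.02 in granule-like cells and the heat shock genes at 0.23 and 0.25, while late response genes were at 1.18 and 0.91, other early effectors at 1.53 and 1.44 and other early transcription factors at 1.17 and 1.60.

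The same lists were read for tomatidine against control. In CA1-like cells the other early transcription factors were at a median log2 difference of −0.04 (14 genes, 0 at least 1.5-fold lower or higher), among them Nr4a3 at −0.28 (−0.36 to −0.20), Klf10 at −0.22 and Egr4 at −0.21 on the lower side and Fosl2 at 0.30 (0.12 to 0.48) on the higher. Other early effectors were at −0.13 (18 genes, 2 lower past the fold and 0 higher): Arl4d at −0.61 (−0.92 to −0.31) and Trib1, a pseudokinase, at −0.59 (−0.84 to −0.34), and next Dusp6, which acts on ERK, at −0.44 (−0.49 to −0.38). Late response genes were at −0.03 (12 genes, none past the fold), with Rasgrp1 at −0.26 and Pcsk1, a prohormone convertase, at 0.34. Genes that signal to the promoters were at 0.09 (18 genes, none past the fold), with Mapk3 at 0.39 (0.25 to 0.53). All 8 heat shock genes were below 0, at a median of −0.17, with Hspa1a at −0.52 (−0.76 to −0.28) and none past the fold.

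In granule-like cells the medians were 0.08 for other early transcription factors (16 genes, 0 lower and 1 higher past 1.5-fold), −0.09 for other effectors (18 genes, none), 0.14 for late response genes (13 genes, 0 and 1), 0.02 for signalling genes (18 genes, none) and −0.15 for heat shock genes (9 genes, none, 8 below 0). Dusp1, a phosphatase of MAP kinases, was at −0.33 (−0.53 to −0.13) and Hspa1a at −0.41 (−0.61 to −0.21), while Homer1, a scaffold of metabotropic glutamate receptors, was at 0.14 (0.09 to 0.19), Btg2 at 0.25 (0.17 to 0.34) and Nptx2 at 0.21 (0.12 to 0.31). The genes past the fold were Klf4 (13 and 15 UMIs) and Baz1a (18 and 29 UMIs), named after their values were seen, as are Klf2, Amigo3 and Maff below.

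In CA3-like cells the medians were 0.09 (14 transcription factors, 0 lower and 1 higher past the fold), −0.12 (17 effectors, 1 and 1), −0.14 (12 late response genes, none), −0.00 (18 signalling genes, none) and −0.07 (8 heat shock genes, none). Nr4a2 was at 0.48 (0.27 to 0.69), Gadd45g at −0.67 (−0.999 to −0.34) and Nptx2 at −0.50 (−0.72 to −0.28), and the genes that passed the fold on the higher side were Klf2 (13 and 18 UMIs) and Amigo3 (18 and 26 UMIs). In interneuron-like cells they were 0.13 (16 transcription factors, 1 and 1), 0.01 (18 effectors, 0 and 2), 0.02 (13 late response genes, 1 and 0), 0.11 (18 signalling genes, none) and −0.09 (9 heat shock genes, none). Nr4a2 was at 0.44 (0.18 to 0.71) and Egr3 at 0.40 (0.15 to 0.66) on the higher side, and Vgf at −0.31 (−0.35 to −0.26) and Cdkn1a, the gene of p21, at −0.73 (−1.12 to −0.34) on the lower. The genes past the fold were Klf2 at 1.33, Ccn1, a matricellular protein, at 1.36 (0.73 to 2.01) and Amigo3 at 1.06 on the higher side, and Maff at −1.44 (−3.26 to 0.09) and Cdkn1a on the lower. Nptx2 lay on opposite sides in granule-like and CA3-like cells.

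Across the 16 classes with at least 30 cells in each library, which gave 32 points, the profile of each gene was set against the mean profile of the other 9. Pearson's r was 0.91 for Egr1, 0.80 for Junb, 0.77 for Npas4, 0.73 for Nr4a1 and Arc, 0.64 for Fos, 0.62 for Fosb, 0.54 for Egr2, 0.40 for Ier2 and 0.28 for Bdnf. Bdnf was highest in granule-like cells and at 22.0 and 23.2 CPM in deep-layer excitatory neuron-like cells. Which classes lowered its r was not tested. The points share libraries, and levels in a point are shares of 1 total, so these values describe and do not test. Of 12946 genes outside the lists, the profiles most like the mean of the 10 were those of Prkcb, a protein kinase C (r = 0.89), Pde1a, a calmodulin-dependent phosphodiesterase (0.88), Rock2 (0.87), Arpc3, a subunit of the Arp2/3 complex (0.86), and Brk1 (0.85).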

How the data were processed

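Single-cell RNA-seq was done by the authors on 1 control and 1 tomatidine library, each a pool of 4 hippocampi. Reads were aligned to mm10. The submitters' processing notes give Cell Ranger 8.0.0, while the matrix header gives 7.1.0. The values deposited are raw counts of UMIs for each gene in each cell. Only genes with probes are counted.

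Cells with at least 500 UMIs, over 250 genes, a complexity (log10 genes over log10 UMIs) above 0.8 and at most 20% mitochondrial UMIs were kept, as in the study. Scrublet's own threshold called 0 and 2 cells, so the 2% with the highest scores were removed (308 and 296). Cells were integrated and clustered in Seurat 5.3.0 (R 4.3.3; 2000 variable genes, 30 components, resolution 0.8), which gave 39 clusters where the study names 13. Clusters were named from markers raised at least 2-fold and found in 10% of cells, and cells of 11 unnamed clusters (17.3%) were not used. A cluster in which another class also had at least 70% of its markers raised counted as mixed and stayed unnamed (4 lists of 5 markers, such as committed oligodendrocyte precursors, and endothelial against mural cells were exempt), a rule chosen after the data were seen. Names are rebuilt and are not the study's.

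UMIs were summed per class and library. Log2 ratios have exact conditional binomial intervals, sums exact Poisson and shares exact (Clopper-Pearson) binomial intervals, at 95%, in scipy 1.17.1 under Python 3.11.15. Ratios were read for genes with at least 20 UMIs over both libraries. The members, the lists of other early transcription factors, other early effectors, late response, signalling and heat shock genes (77 of 81 found) and the tests were chosen with earlier results of these data known, and the split at 20000 UMIs after seeing the values. Named are all 10 members and, of each list, up to 3 genes at either end with at least 100 UMIs. The value of 1 gene this rule names is not reported here. The 5 genes most like the members were chosen by Pearson's r among genes with at least 500 UMIs. TMM factors came from edgeR 4.0.16 and served only as another scaling. The calculations were tested on simulated data. Gene positions are those of GENCODE vM21, and promoter windows those of RefSeq.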

Additional observations from a re-analysis of the deposited data

Results flagged for a closer look

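4 genes were flagged because their tomatidine over control difference pointed in opposite directions in 2 cell classes, by at least 1.2-fold each way with neither counting interval reaching 0. With 1 library a group, none of these differences between classes was tested. Fosb was lower in astrocyte-like cells (log2 −0.48, 99 and 84 UMIs) and higher in interneuron-like cells (0.84, 53 and 86 UMIs), 1.32 apart. Junb was lower in oligodendrocyte precursor-like cells (−0.77, 80 and 34 UMIs) and higher in vessel-like cells (0.45, 240 and 359 UMIs), 1.22 apart. Arc was lower in CA3-like cells (−0.44, 1189 and 772 UMIs) and higher in oligodendrocyte-like cells (0.41, 1787 and 1772 UMIs), 0.85 apart. Ier2 was lower in CA1-like cells (−0.54, 296 and 144 UMIs) and higher in vessel-like cells (0.39, 353 and 509 UMIs), 0.93 apart.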

How the results depend on the processing

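No paired analysis was possible because each group is 1 library and the labels give no shared replicate numbers. For the same reason no replicate was left out.

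Of 120 other values (single genes, single glia and vessel classes, genes per cell), 91 moved by more than their counting error in at least 1 setting. With the study's other quality thresholds as well (200 to 6000 genes, under 10% mitochondrial UMIs), the summed difference was 0.054 in granule-like, 0.036 in CA1-like, −1.58 in CA3-like (24 cells) and 0.30 in interneuron-like cells. Bdnf in precursor-like cells was at 0.036. In the control library neurons over glia and vessel cells was then −0.85 for Egr2 and −0.66 for Nr4a1, with sums of 0.61 (control) and 0.80 (tomatidine), and 14 values were lower and 14 higher past 1.5-fold in place of 5 and 3.

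Classing cells one by one from their markers gave summed differences of −0.40 in CA1-like, −0.39 in interneuron-like, 0.90 in precursor-like and −0.26 in glia and vessel cells together, with Fosb at −0.10 in interneuron-like cells and Junb at 1.497 and Bdnf at 0.12 in precursor-like cells. It put 10 values lower and 12 higher. Neurons over glia and vessel cells became −0.30 for Egr2 and −0.19 for Nr4a1 (control), −0.10 for Egr1 and −0.13 for Nr4a1 (tomatidine), and 0.13 and 0.10 for the sums, with 1 gene past the fold in each library in place of 6 and 5.

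The sums of neurons over glia and vessel cells, 0.99 and 0.73, moved to 0.93 and 0.69 without doublet removal, to 0.69 (tomatidine) without integration, to 1.03 and 0.83 at resolution 0.3 and to 0.79 and 0.56 at resolution 1.5. Resolution 0.3 left 1 value higher past the fold, and resolution 1.5 put 10 lower and glia and vessel cells at −0.047. In cells of at most 20000 UMIs the sums were 0.0072 (granule), 0.017 (CA1), −0.25 (CA3) and 0.19 (interneuron), and in deeper cells −0.25, −0.40, 0.042 and −0.17. TMM factors gave −0.17 in granule-like and −0.43 in CA1-like cells, 10 values lower and 1 higher. The mean over cells gave −0.26 (CA1), −0.10 (CA3), −0.038 (glia and vessel cells) and 0.27 for Bdnf in precursor-like cells. Without the 1% of cells with the most member UMIs, interneuron-like cells were at −0.014 and 1 value was higher past the fold. A minimum of 100 UMIs left 3 lower. Unthinned, the mean number of genes per CA3-like cell differed by 0.021. The causes were not tested. Counts under 20 UMIs over both libraries limit Egr2 in precursor-like (5 UMIs), vessel-like (10), CA3-like (11) and interneuron-like (18) cells and Fosb in microglia-like cells (19).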

Other observations

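In thalamic neuron-like cells Fos was at 61.3 and 29.9 CPM (−1.04, −1.26 to −0.82), and the sum differed by −0.31 (−0.39 to −0.23). In cortical or subicular excitatory neuron-like cells the sum was close to level (−0.05, −0.09 to −0.02), with Arc lower (−0.45, −0.55 to −0.34) and Npas4 (0.45, 0.22 to 0.67) and Nr4a1 (0.15, 0.07 to 0.22) higher. These classes lie outside the hippocampus or at its border, and the libraries held unequal numbers of several such cells. The part of the dissection in these values was not tested. Npas4 was thus not lower in the CA1-like, cortical and deep-layer excitatory classes, in which Arc was lower.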
